A study of Homo sapiens with 12 samples.

Results

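The heat shock chaperones described here are 10 genes of the human gene count table, chosen by symbol: HSPA1A, HSPA1B, HSPA8, DNAJB1, HSPH1, HSP90AA1, HSP90AB1, HSPB1, HSPD1 and HSPE1. All 10 were found by Ensembl identifier among 57820 genes, each once, and all 10 passed the filter on low counts that left 21270 genes for testing. The libraries came from JVM3, HG3 and MEC1, 3 established B cell lines that the labels give as chronic lymphocytic leukaemia. Each line was sequenced with mutant U1 small nuclear RNA (the g.3A>C change, in which the third base of U1 is C in place of A) and with wild-type U1, from 2 technical replicates of each, which makes 12 libraries in 6 groups. No other allele, agent or treatment is named for any group. The sources used here do not say how the mutant U1 was brought into the cells or whether a mutant line is 1 clone. Because the replicates are technical, a p-value within 1 line measures only the spread between libraries of the same cells, and the 3 lines are the replicates of a comparison across lines.

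Chaperones bind unfolded or partly folded proteins and help them fold, refold or be degraded. HSP70 proteins (HSPA1A, HSPA1B, HSPA8) hold short exposed stretches of a client in a cycle driven by ATP, which J-domain proteins such as DNAJB1 start and nucleotide exchange factors such as HSPH1 reset. HSP90 proteins (HSP90AA1, HSP90AB1) take over near-native clients, many of them kinases and receptors, the small heat shock protein HSPB1 keeps unfolded clients soluble, and HSPD1 with its lid HSPE1 forms the folding chamber of the mitochondrial matrix. Heat shock factor 1 (HSF1) raises transcription of most of these genes under stress by binding inverted repeats of the unit GAA, called heat shock elements. U1 base-pairs with the 5′ splice site at the start of an intron, and the base changed here faces the sixth base of the intron.

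The libraries held 29880079 to 39716818 reads counted in genes. Levels below are in CPM, counts relative to library size, scaled by the trimmed mean of M-values (TMM). The 7 B cell markers summed to 3191.8 to 5304.0 CPM in mutant libraries and 3115.0 to 5098.4 CPM in wild-type libraries, while 6 T cell, 7 myeloid and 5 stromal markers summed to at most 13.6 CPM in mutant libraries and 16.7 CPM in wild-type libraries for any 1 list. Of the T cell markers, 1 was at 0 in all mutant libraries and 1 in all wild-type libraries. No B cell, T cell, myeloid or stromal marker passed across lines in edgeR's test (0 called; 4 B cell and 2 stromal markers at an unadjusted p under 0.05). Within lines 2, 2 and 3 B cell markers rose and 3, 5 and 4 fell in JVM3, HG3 and MEC1, led by CD79B (-0.57) and CD22 (-0.55) in MEC1. Beside them, 10.4%, 18.7% and 18.0% of all genes tested rose and 12%, 19.6% and 18.6% fell. Of the myeloid and stromal markers, ITGAM (-0.42) and COL1A2 (-1.78) fell in JVM3 and COL1A1 (1.24) rose in MEC1, and no T cell marker passed. The share of counts on mitochondrial genes was lower with mutant U1 in every line: 0.627% and 0.556% in mutant against 0.736% and 0.735% in wild-type JVM3, 1.1% and 1.0% against 1.27% and 1.23% in HG3, and 0.799% and 0.715% against 1.18% and 1.04% in MEC1. Of 8 mitochondrial transcripts, MT-CO3 fell across lines (-0.55, adjusted p = 0.0226, edgeR), 1, 3 and 5 fell within JVM3, HG3 and MEC1, and MT-ND1 (-1.32) and MT-ND2 (-1.11) fell most, in MEC1. The part of this shift in the results below was not tested. In bulk RNA, fewer cells of a type and less RNA per cell cannot be told apart, and gene counts do not show which base U1 carries, so the mutation itself was not checked here.

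Together the 10 genes were higher with mutant U1 in JVM3 and lower in HG3, with HSPA8 and HSP90AB1 giving most of the sum. Their summed level was 4623.1 and 4609.5 CPM in mutant against 4190.6 and 4332.8 CPM in wild-type JVM3, and 3947.7 and 3946.1 CPM in mutant against 3886.8 and 3996.0 CPM in wild-type MEC1. In HG3 it was 5366.5 and 5201.8 CPM in mutant and 6231.2 and 6207.8 CPM in wild-type libraries. The groups did not overlap in JVM3 or HG3, and in MEC1 the mutant libraries fell between the wild-type ones. Per kilobase of the transcript with the longest coding sequence, the mean over 3 lines was highest for HSPA8, at 651.0 CPM per kb with mutant and 652.0 CPM per kb with wild-type U1, followed by HSP90AB1 (537.0 and 579.0) and HSPD1 (296.0 and 309.0). HSPA1A was lowest, at 5.96 CPM per kb with mutant and 4.79 CPM per kb with wild-type U1, with separate counts that are uncertain for the reason given below.

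**Figure D1:**
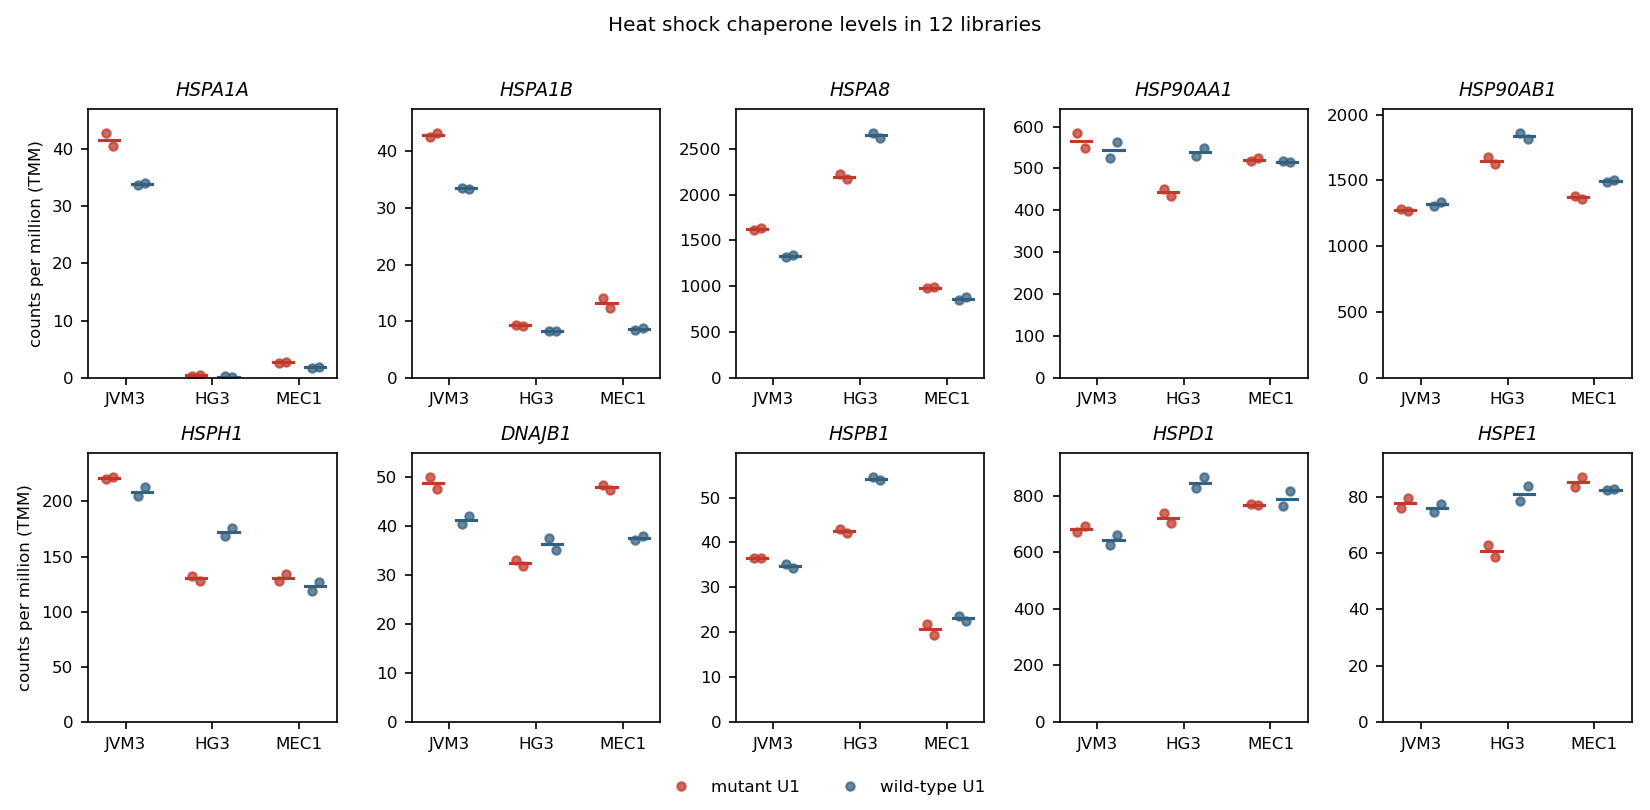
TMM-scaled CPM (linear axes from 0) of the 10 chaperone genes in JVM3, HG3 and MEC1, with mutant U1 in red left of wild-type U1 in blue. Each point is 1 library and each bar the mean of 2 technical replicates. HSPA8 was highest in HG3, where both mutant libraries (2219.2 and 2165.6) lay below both wild-type libraries, and HSPA1A and HSPA1B were highest in JVM3.

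Across the 3 lines, 0 of the 10 genes passed an adjusted p of 0.05 in edgeR's quasi-likelihood test with the line as a block, with 2 of 10 at an unadjusted p under 0.05 and 0 called by DESeq2. Of all genes tested, 784 of 21270 passed, or 3.69% (1.83% higher and 1.86% lower). The median log2 fold change of the 10 was -0.06, beside -0.01 over all genes tested. The 2 genes with the largest changes were HSPA1A and HSPA1B, and HSP90AB1 was the only one of the 10 that was lower with mutant U1 in every line.

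HSPA1A and HSPA1B encode the stress-inducible HSP70 of the cytosol and were both higher with mutant U1 in the fitted change of all 3 lines. In JVM3, HSPA1A had 42.7 and 40.4 CPM in mutant libraries, against 33.6 and 34.0 CPM in wild-type libraries, and HSPA1B had 42.6 and 43.2 CPM against 33.5 and 33.4 CPM. In MEC1, HSPA1A had 2.60 and 2.75 CPM in mutant libraries, against 1.70 and 1.95 CPM in wild-type libraries, and HSPA1B had 14.1 and 12.3 CPM against 8.45 and 8.73 CPM. Neither gene's groups overlapped in these lines. In HG3, HSPA1B had 9.37 and 9.13 CPM in mutant libraries and 8.25 and 8.29 CPM in wild-type libraries, while HSPA1A was near the limit of detection, with 8 and 19 reads in mutant libraries and 10 and 2 reads in wild-type libraries. The HSPA1A groups overlapped there. On the log2 scale of edgeR's test HSPA1A rose by 0.30 in JVM3 (adjusted p = 0.00299) and by 0.55 in MEC1 (adjusted p = 0.00969). HSPA1B rose by 0.36 in JVM3 (adjusted p = 1.72e-05) and by 0.62 in MEC1 (adjusted p = 3.67e-08). In HG3, HSPA1A passed at 1.17 (adjusted p = 0.0451) and HSPA1B did not at 0.19 (adjusted p = 0.107). The HG3 value of HSPA1A was 0.43 (adjusted p = 0.698) without mutant replicate 2 and 0.56 (adjusted p = 0.462) without wild-type replicate 2. HSPA1A also lost its call in JVM3 without mutant replicate 1 (adjusted p = 0.0772) and in MEC1 without wild-type replicate 1 (adjusted p = 0.116).

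Averaged over the lines, HSPA1A had 14.8 ± 23.1 CPM with mutant and 11.9 ± 18.9 CPM with wild-type U1 (SD, n = 3 lines). Its log2 fold change was 0.48 in edgeR's test, with an adjusted p of 0.117. The separate log2 changes of the 3 lines had an SE of 0.23, which includes the HG3 value on few reads. HSPA1B had 21.8 ± 18.3 CPM with mutant and 16.8 ± 14.5 CPM with wild-type U1. Its log2 fold change in edgeR's test was 0.39, with an adjusted p of 0.0903, and its separate changes had an SE of 0.13. The SDs are wide because the lines differ in level, which the line term removes from the test. Both genes passed without the filter on low counts, with adjusted p of 0.0416 for HSPA1A and 0.0343 for HSPA1B.

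HSPA1A and HSPA1B are near-identical copies, and their separate counts are uncertain. The longest coding sequences differ at 4 of 1926 aligned bases (99.8% identity), and 90.9% of all 100-base windows of HSPA1A's coding sequence, and 96.1% of HSPA1B's, occur unchanged in another annotated gene. The share of the pair's counts assigned to HSPA1A differed between the lines far more than between mutant and wild-type libraries of 1 line. It was 50.1% and 48.3% in mutant against 50.1% and 50.4% in wild-type JVM3, and 15.6% and 18.3% against 16.8% and 18.3% in MEC1. In HG3 it was 2.56% and 5.96% in mutant against 3.33% and 0.803% in wild-type libraries (the last with a 95% exact binomial interval of 0.0974% to 2.87%, which covers counting error only).

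Summed to 1 gene, the pair had 85.3 and 83.6 CPM in mutant against 67.1 and 67.4 CPM in wild-type JVM3, 9.62 and 9.71 CPM against 8.54 and 8.36 CPM in HG3, and 16.7 and 15 CPM against 10.1 and 10.7 CPM in MEC1. The mutant libraries lay above the wild-type libraries in all 3 lines. Reads aligned to more than 1 place made up 29% to 34.9% of a library's tally. Such a read may be tallied at each place, so the share of reads is not known. None of them entered a gene count. The sum therefore holds only reads aligned to 1 place, and the part of the pair's reads left out was not tested. The log2 fold change of the sum was 0.33 in JVM3 (adjusted p = 2.28e-06), 0.22 in HG3 (adjusted p = 0.0408) and 0.61 in MEC1 (adjusted p = 3.83e-09) in edgeR's test, and 0.39 across the lines (adjusted p = 0.0734). The rise in HG3 was smaller than that in MEC1 by 0.39 on the log2 scale (adjusted p = 0.00865), and HG3 minus JVM3 was -0.11 (adjusted p = 0.523).

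**Figure D2:**
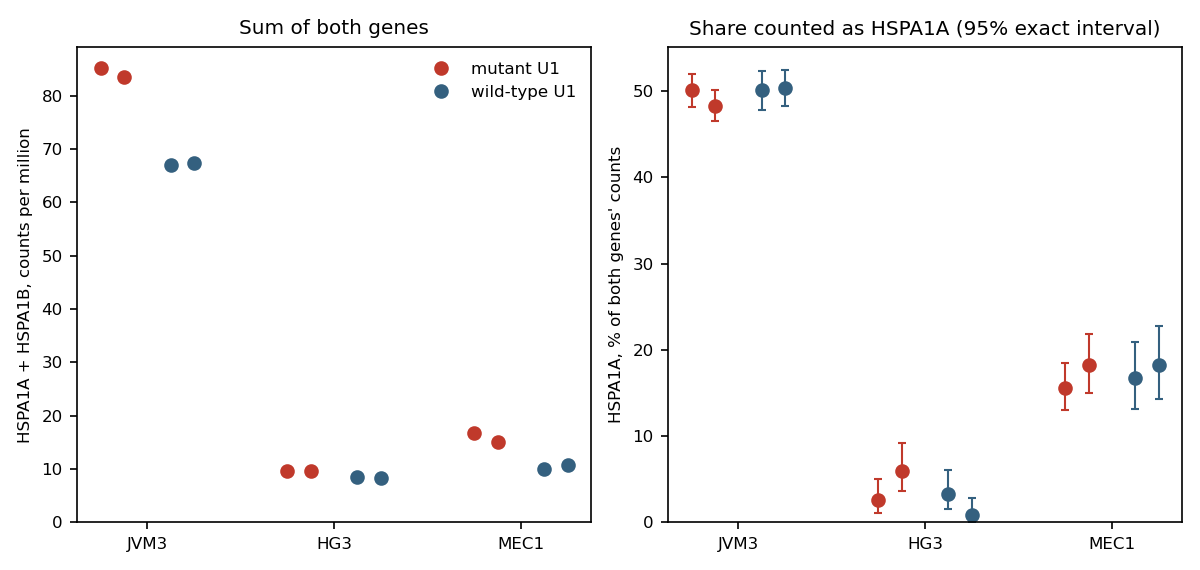
HSPA1A and HSPA1B in each library, with mutant U1 in red left of wild-type U1 in blue. Left, their summed CPM, with both mutant libraries above both wild-type libraries in each line; right, the percent of the pair's counts assigned to HSPA1A with 95% exact binomial intervals, near 50% in JVM3, 15.6% to 18.3% in MEC1 and at most 5.96% in HG3.

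Within lines, 4 of the 10 genes rose in mutant JVM3 and 0 fell, where 10.4% of all genes tested rose and 12% fell (22.4% in all). In mutant MEC1, 4 rose and 2 fell, where 18.0% of all genes rose and 18.6% fell (36.6% in all). The same 4 genes rose in both lines: HSPA1A, HSPA1B, HSPA8 and DNAJB1. HSPA1A and HSPA1B are not independent counts. With them summed to 1 gene, 3 rose and 0 fell in JVM3, and 3 rose and 2 fell in MEC1. In mutant HG3, 1 rose (HSPA1A, on the few reads given above) and 7 fell, where 18.7% of all genes rose and 19.6% fell (38.3% in all). The median log2 fold change of the 10 genes stood at 0.08 for JVM3, -0.22 for HG3 and 0.06 for MEC1, beside -0.02, 0.01 and 0.00 over all genes tested.

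The 250 bases before the transcription start of these 4 genes are given because they rose together in JVM3 and MEC1 and because heat shock elements are the best-known feature their promoters share. Capitals mark elements of 2 inverted units, written GAANNTTC or TTCNNGAA, where N is any base. Sequences are from RefSeq on GRCh38.p14, 5′ to 3′ on the strand of the gene: chr6:31815293-31815542 on the plus strand for HSPA1A, chr6:31827488-31827737 on the plus strand for HSPA1B, chr11:123062137-123062386 on the minus strand for HSPA8 and chr19:14518398-14518647 on the minus strand for DNAJB1, the second of its 3 listed starts.
HSPA1A: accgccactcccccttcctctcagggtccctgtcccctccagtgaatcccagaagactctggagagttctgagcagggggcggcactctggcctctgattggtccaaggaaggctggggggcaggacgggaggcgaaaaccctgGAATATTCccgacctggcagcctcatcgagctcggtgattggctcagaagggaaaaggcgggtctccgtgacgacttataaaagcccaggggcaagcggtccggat
HSPA1B: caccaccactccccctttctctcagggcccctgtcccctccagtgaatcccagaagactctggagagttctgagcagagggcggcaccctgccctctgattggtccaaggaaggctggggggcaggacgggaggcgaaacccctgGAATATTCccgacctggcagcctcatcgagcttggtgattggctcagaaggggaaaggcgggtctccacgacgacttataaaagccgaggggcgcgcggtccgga
HSPA8: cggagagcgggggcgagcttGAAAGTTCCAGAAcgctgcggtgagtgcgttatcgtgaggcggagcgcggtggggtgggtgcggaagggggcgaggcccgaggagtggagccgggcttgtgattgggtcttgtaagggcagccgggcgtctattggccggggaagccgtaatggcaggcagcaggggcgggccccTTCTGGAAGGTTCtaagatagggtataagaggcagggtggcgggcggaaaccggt
DNAJB1: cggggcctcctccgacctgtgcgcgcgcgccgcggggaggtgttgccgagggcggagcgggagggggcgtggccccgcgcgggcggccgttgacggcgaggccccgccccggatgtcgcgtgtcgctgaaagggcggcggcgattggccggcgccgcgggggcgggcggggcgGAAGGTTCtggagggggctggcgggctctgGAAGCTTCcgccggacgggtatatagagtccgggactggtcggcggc

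Both strands were searched in the whole window of 250 bases before and 50 after each start, with overlaps between the motifs counted. All 10 genes matched RefSeq windows, 16 in all. HSPA1A and HSPA1B held 1 element each, DNAJB1 held 2 in the window shown, and HSPA8 held 4, which overlap in pairs to form 2 elements of 3 units. Elements of 3 units were also found in HSP90AA1 (1), HSP90AB1 (2) and HSPD1 (2), which did not rise in any line, and an element of 2 units alone in HSPB1. For HSP90AA1, HSP90AB1 and HSPD1 they lay in the last listed window, and the earlier windows held 0. No element was found in the single windows of HSPH1 and HSPE1. The HSPD1 elements lie in chr2:197499791-197500090, just outside the HSPE1 window, which begins at 197500129. Elements beyond a window's ends are not seen here. Of 35116 RefSeq windows of this length, 13.5% hold an element of 2 units and 0.49% one of 3 units. These are shares of single windows, and a gene with several windows has more places to hold an element. The letters were found both in genes that rose and in genes that did not. A TATAAA box, found in 11.5% of windows, lies in the windows of HSPA1A and HSPA1B, with its first base at -30 and -29 from the start.

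HSPA8, the constitutive HSP70, rose in JVM3 and MEC1 and fell in HG3. In HG3 its level was the highest of the 10 genes. In MEC1 HSP90AB1 was higher, with means of 1372.3 CPM in mutant and 1494.5 CPM in wild-type libraries. HSPA8 stood at 1615.6 and 1634.1 CPM in mutant against 1314.9 and 1336.8 CPM in wild-type JVM3, and 978.6 and 988.0 CPM against 845.1 and 883.8 CPM in MEC1. In HG3 it had 2219.2 and 2165.6 CPM in mutant against 2669.1 and 2620.6 CPM in wild-type libraries. The groups did not overlap in any line. The log2 fold change was 0.29 in JVM3 (adjusted p = 1.28e-10), -0.25 in HG3 (adjusted p = 2.24e-09) and 0.18 in MEC1 (adjusted p = 2.09e-06), each from edgeR's test. The HG3 response was lower than that of JVM3 by 0.54 (adjusted p = 8.48e-14) and lower than that of MEC1 by 0.43 (adjusted p = 3.05e-11) on the log2 scale. Spliced HSPA8 reads gave 1284.9 against 1061.2 CPM (of all junction reads) in JVM3, 1811.6 against 2138.2 in HG3 and 877.7 against 758.8 in MEC1, mutant before wild type. By their column names the junction counts pool the same libraries, so they are not an independent measurement.

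DNAJB1, a J-domain protein that delivers clients to HSP70 and starts its ATP cycle, had 49.9 and 47.5 CPM in mutant against 40.4 and 42.0 CPM in wild-type JVM3, and 48.3 and 47.4 CPM against 37.2 and 38.0 CPM in MEC1. In HG3 it had 33.1 and 31.9 CPM in mutant and 37.5 and 35.0 CPM in wild-type libraries. The mutant libraries were the higher ones in JVM3 and MEC1 and the lower ones in HG3. DNAJB1 rose in JVM3 (log2 fold change 0.24, adjusted p = 0.000597, edgeR) and in MEC1 (0.35, adjusted p = 6.23e-07). The HG3 value of -0.13 did not pass (adjusted p = 0.0559). It passed at -0.14 when any JVM3 or MEC1 library was left out, and not when either mutant HG3 library or wild-type HG3 replicate 1 was.

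HSPH1, the HSP110 exchange factor that resets HSP70 and also holds unfolded proteins itself, changed in HG3. It had 132.6 and 127.9 CPM in mutant against 168.4 and 176.3 CPM in wild-type HG3, a log2 fold change of -0.38 (adjusted p = 1.28e-10, edgeR). In JVM3 it had 220.2 and 221.8 CPM in mutant against 205.0 and 212.8 CPM in wild-type libraries, and in MEC1 127.6 and 134.1 CPM against 118.8 and 127.1 CPM. Those changes of 0.08 (adjusted p = 0.15) and 0.09 (adjusted p = 0.094) did not pass. The HG3 response was lower than that of JVM3 by 0.46 (adjusted p = 2.11e-08) and lower than that of MEC1 by 0.47 (adjusted p = 1.3e-08).

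The HSP90 genes differed from each other. HSP90AA1, the stress-inducible form, had 451.7 and 435.0 CPM in mutant against 530.0 and 549.2 CPM in wild-type HG3 and fell by 0.26 on the log2 scale (adjusted p = 5.04e-08, edgeR). In the other lines it ran from 517.4 to 583.9 CPM in mutant and from 514.6 to 563.5 CPM in wild-type libraries, and its changes of 0.05 in JVM3 and 0.01 in MEC1 did not pass. HSP90AB1, the constitutive form, had 1675.1 and 1624.8 CPM in the mutant HG3 libraries, with 1858.0 and 1814.7 CPM in the wild-type ones. In MEC1 it had 1382.3 and 1362.3 CPM in mutant and 1488.3 and 1500.6 CPM in wild-type libraries. It fell in HG3 (-0.13, adjusted p = 0.000314) and in MEC1 (-0.13, adjusted p = 0.000441), while JVM3 (-0.05, adjusted p = 0.234) did not pass. HSP90AB1 is 1 of 2 genes, with HSPA1A, for which the response did not differ between lines beyond the threshold (adjusted p = 0.227).

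HSPB1, a small heat shock protein that acts without ATP, had 43.0 and 42.0 CPM in mutant against 54.5 and 53.8 CPM in wild-type HG3 and fell by 0.32 on the log2 scale (adjusted p = 4.16e-06, edgeR). In MEC1 it had 21.8 and 19.4 CPM in mutant and 23.7 and 22.4 CPM in wild-type libraries, a change of -0.16 (adjusted p = 0.0411) that 1 library could decide: without mutant MEC1 replicate 2 it was -0.08 (adjusted p = 0.488). In JVM3 it had 36.5 CPM in both mutant libraries and 35.1 and 34.3 CPM in wild-type libraries, and did not pass.

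HSPD1 and HSPE1, the mitochondrial chaperonin and its lid, are transcribed away from each other out of 1 shared promoter. The first of HSPD1's 2 RefSeq windows, which holds no heat shock element, overlaps that of HSPE1. In HG3, HSPD1 had 739.0 and 706.1 CPM in mutant against 826.6 and 866.0 CPM in wild-type libraries, and HSPE1 had 63.1 and 58.8 CPM against 78.5 and 83.9 CPM. Both fell there, HSPD1 by 0.20 (adjusted p = 5.73e-06, edgeR) and HSPE1 by 0.39 (adjusted p = 3.26e-09) on the log2 scale. In JVM3 and MEC1 neither gene passed, with log2 fold changes between -0.04 and 0.08. Of HSPE1's 100-base windows, 33.5% also occur in other annotated genes, counted on either strand. HSPD1, on the opposite strand, shared 140 windows, and the readthrough gene HSPE1-MOB4 shared 94. How far the HSPD1 part touches the counts depends on the strand setting, which was not given. HSPE1's counts are thus less certain than those of HSPA8, HSPH1 and DNAJB1, for which no window was shared.

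**Figure D3:**
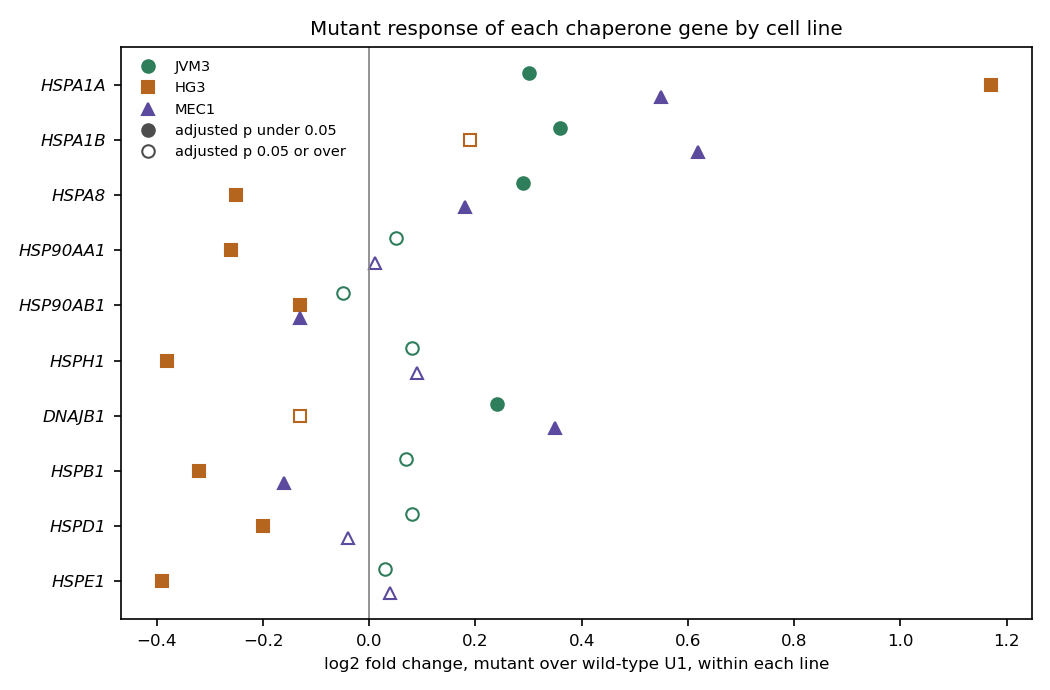
Log2 fold change of mutant over wild-type U1 (horizontal axis) within JVM3, HG3 and MEC1 for each of the 10 chaperone genes. Filled symbols passed an adjusted p of 0.05 in edgeR's test and open ones did not. HG3 lies left of both other lines for HSPA1B, HSPA8, HSP90AA1, HSPH1, DNAJB1, HSPB1, HSPD1 and HSPE1, and right of them for HSPA1A, whose HG3 value rests on 2 to 19 reads a library.

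The response differed between the lines for 8 of the 10 genes in edgeR's test of the interaction, where 32.0% of all genes tested passed. The call for HSPA1B was lost without mutant MEC1 replicate 1 (adjusted p = 0.132) or wild-type MEC1 replicate 1 (adjusted p = 0.0501). HG3 stood apart from both other lines. Its response was lower than that of JVM3 for 7 genes and higher for 0, where 10.5% of all genes were lower and 8.92% higher (19.4% in all). It was lower than that of MEC1 for 7 genes and higher for 0, where 12% were lower and 9.78% higher (21.8% in all). Between MEC1 and JVM3, 0 of the 10 differed, where 18.4% of all genes did (9.51% higher and 8.90% lower) and 4 of the 10 had an unadjusted p under 0.05, although 1 gene passed with DESeq2 and 2 with median-of-ratios size factors. The 6 genes HSPA8, HSP90AA1, HSPH1, DNAJB1, HSPD1 and HSPE1 were lower in HG3 in both comparisons. Against MEC1, the call of HSPD1 (-0.16, adjusted p = 0.0127) was lost without mutant HG3 replicate 2 (adjusted p = 0.0852), wild-type HG3 replicate 2 (0.0927) or wild-type MEC1 replicate 1 (0.0728), and that of HSPA1B without mutant MEC1 replicate 1 (0.0776). These comparisons share the HG3 libraries, and since there is 1 line of each kind, a property of HG3 and a property of its mutant derivative cannot be told apart.

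Among wild-type libraries JVM3 differed most from the other lines, of the 10 genes, in the inducible HSP70 genes. HSPA1A averaged 0.176 CPM in HG3, 1.83 CPM in MEC1 and 33.8 CPM in JVM3, a log2 difference of -7.50 for HG3 minus JVM3 and of -4.20 for MEC1 minus JVM3. For the sum of HSPA1A and HSPA1B, in reads aligned to 1 place, the differences were -3.01 (adjusted p = 1.13e-35, edgeR) and -2.68 (adjusted p = 9.77e-35). HG3 minus MEC1 was only -0.33 for the sum (adjusted p = 0.000723, edgeR), beside 1.59 for HSPA8 and 1.2 for HSPB1. HSPA1A alone, with few reads in HG3, gave -3.3 there. HSPA8, with 2644.8 CPM in HG3, 1325.8 CPM in JVM3 and 864.4 CPM in MEC1, was higher in HG3 than in JVM3 and, like the inducible genes, lower in MEC1 than in JVM3. HSPB1 had the same order, with 54.1, 34.7 and 23.1 CPM. DNAJB1 spanned 36.3 to 41.2 CPM and HSP90AA1 515.9 to 544.4 CPM, and no pair of lines passed for HSP90AA1. Of the 10 genes, 8 differed between HG3 and JVM3, 9 between MEC1 and JVM3 and 5 between HG3 and MEC1, where 63.4%, 71.8% and 67.5% of all genes tested did. The first held 4 higher and 4 lower genes (30.9% and 32.5% of all genes), the second 3 higher and 6 lower (33.9% and 37.9%) and the third 4 higher and 1 lower (35.3% and 32.1%). Some of these calls lie near the threshold. In MEC1 minus JVM3, DNAJB1 (-0.13, adjusted p = 0.0376, edgeR) was lost with DESeq2 (0.0914) and without wild-type JVM3 replicate 2 (0.18), wild-type MEC1 replicate 1 (0.13) or wild-type MEC1 replicate 2 (0.0504), and HSPE1 (0.12, adjusted p = 0.0156) with DESeq2 (0.0593) and without wild-type JVM3 replicate 1 (0.15). HSPD1 in HG3 minus MEC1 (0.07, adjusted p = 0.0639) passed whenever a JVM3 library was left out, with adjusted p of 0.0275 to 0.0391. HSPE1 in HG3 minus JVM3 (0.07, adjusted p = 0.175) passed without wild-type HG3 replicate 1 (0.0326).

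With the 6 groups of 2 libraries each in order of level, HSP90AB1 and HSPB1 in wild-type HG3 were the highest of their 6 groups, and both genes were lowest in a mutant group, HSP90AB1 in JVM3 and HSPB1 in MEC1. For HSPE1, 4 groups from wild-type MEC1 (82.5 CPM) to wild-type JVM3 (76.2 CPM) ran into each other, and mutant HG3 stood below them at 61.0 CPM. For HSP90AA1, mutant HG3 was likewise lowest, at 443.4 CPM. For HSPH1, mutant HG3 (130.3 CPM) overlapped mutant MEC1 (130.9 CPM).

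The junction table, with 170723 junctions and 1 column for each line and U1 status, held 65 junctions in 7 of the 10 genes. None was matched for HSPA1A, HSPA1B or DNAJB1. Positions are on hg19 and name the exon bases on either side of the intron. Of the member junctions, 18 could be tested against others with the same acceptor and 21 against others with the same donor. Of these, 1 and 2 were used more with mutant U1 and 0 less, where 2.74% of all junctions tested at an acceptor and 1.89% of those at a donor were used more and 0.982% and 0.701% less (3.73% and 2.59% in either direction). The call at an acceptor and 1 of the calls at a donor are the same HSPH1 junction.

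The HSPH1 junction from 31715396 to 31719700 on chromosome 13, which leaves out exon 12 of 18, was used more with mutant U1 in all 3 lines. Its reads were 35 in mutant against 8 in wild-type JVM3, 19 against 4 in HG3 and 44 against 6 in MEC1. Its share of reads at the acceptor was 4.41% against 1.24% in JVM3, 4.07% against 0.648% in HG3 and 8.13% against 1.39% in MEC1, and the 95% Wilson intervals of mutant and wild type were apart in each line. The mean difference was 4.44 points, with an adjusted p of 0.000379 in edgeR's test of junction use, and of 0.00646 at the shared donor. With limma on log ratios it did not pass, with adjusted p of 0.0791 at the acceptor and 0.144 at the donor, and without MEC1 the donor test gave 0.0793.

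The skipped exon lies at chr13:31717929-31718060 (hg19, minus strand), is coding, and holds 132 bases or 44 whole codons, codons 531 to 574 of the longest coding sequence. In GENCODE, 5 of 9 HSPH1 transcripts contain it and 1 joins its neighbours without it. Its sequence is printed because its 5′ splice site is the one that skipping leaves unused. Capitals mark its last 3 bases, the exon side of that site. The sixth base of the intron, which faces the changed base of U1, is not shown, and pairing with U1 was not tested.
HSPH1 exon 12: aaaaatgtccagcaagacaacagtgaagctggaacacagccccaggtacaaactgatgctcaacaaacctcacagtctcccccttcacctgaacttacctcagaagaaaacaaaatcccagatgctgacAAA
As background, a shorter form of the protein, HSP105 beta, is known in human cells to lack an internal stretch through skipping of 1 exon and to appear after mild heat shock. Whether these junction reads come from that transcript was not tested, since a junction does not show the rest of its RNA.

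In HSP90AB1 the junction from 44221115 to 44221238 on chromosome 6, whose acceptor lies 12 bases beyond the annotated one, had 72 reads in mutant JVM3 and 93 in mutant MEC1 and 0 in the other 4 columns, mutant HG3 included. Those counts were 2.35% and 2.53% of reads at the donor (adjusted p = 2.4e-05 in edgeR's test, 0.339 with limma). In mutant HG3, 0 of 3649 reads allows a share of up to 0.0822%. A second HSP90AB1 junction, from 44217320 to 44217422, had 98, 103 and 122 reads in mutant JVM3, mutant MEC1 and wild-type MEC1 and 0 elsewhere, and did not pass. Such jumps from 0 to 50 or more reads between columns were seen at 1196 of 170723 junctions, 4 of them in these genes, and the sources used here do not say how reads were assigned there.

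HSPA8 used an unannotated acceptor 8 bases beyond the annotated one, with the junction from 122929961 to 122930181 on chromosome 11. Its share of reads at the donor was 10.5% in mutant against 5.50% in wild-type JVM3, 10.8% against 6.03% in MEC1, and 6.01% against 10.1% in HG3. The direction in HG3 was opposite to that in the other lines, since 471 of its reads came from mutant HG3 and 982 from wild-type HG3. Across lines it did not pass (adjusted p = 1), and the difference between the lines was not tested, since each group has 1 column. In HSPD1, an unannotated acceptor 6 bases beyond the annotated one took 4.70% of reads in mutant JVM3 and 0 of 1580 reads in wild-type JVM3, which allows a share of up to 0.19%. For HG3 its share was 3.32% with mutant and 2.46% with wild-type U1, and for MEC1 2.99% with mutant and 2.68% with wild-type U1. It did not pass either.

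The deepest annotated junction of HSPA8 moved as its gene level did, in reads that by column name come from the same libraries. This junction, from 122931506 to 122931828, had 6320 reads in mutant and 4573 in wild-type JVM3, 8091 and 9655 in HG3, and 4069 and 3343 in MEC1, mutant before wild type. Those of HSP90AB1 (44216513 to 44217114), HSPD1 (198351922 to 198352582), HSPE1 (198365962 to 198367763) and HSP90AA1 (102548158 to 102548448) held 45550, 16506, 12505 and 11653 reads over the 6 columns, and those of HSPH1 (31718060 to 31719700) and HSPB1 (75932393 to 75933119) held 3390 and 2413. An unannotated HSP90AB1 acceptor at 44219852 varied little, with 3.83%, 3.62% and 3.79% of reads at its donor in mutant and 3.81%, 3.92% and 3.71% in wild-type JVM3, HG3 and MEC1. Other unannotated junctions were shallow: in HSP90AA1, one had 57 reads in mutant and 35 in wild-type MEC1 and another 18 in mutant HG3, with 0 in the other columns of each, and in HSPE1 one had 14 reads in mutant JVM3, 6 in mutant and 6 in wild-type MEC1, 2 in mutant HG3 and 0 in wild-type JVM3 and HG3.

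**Figure D4:**
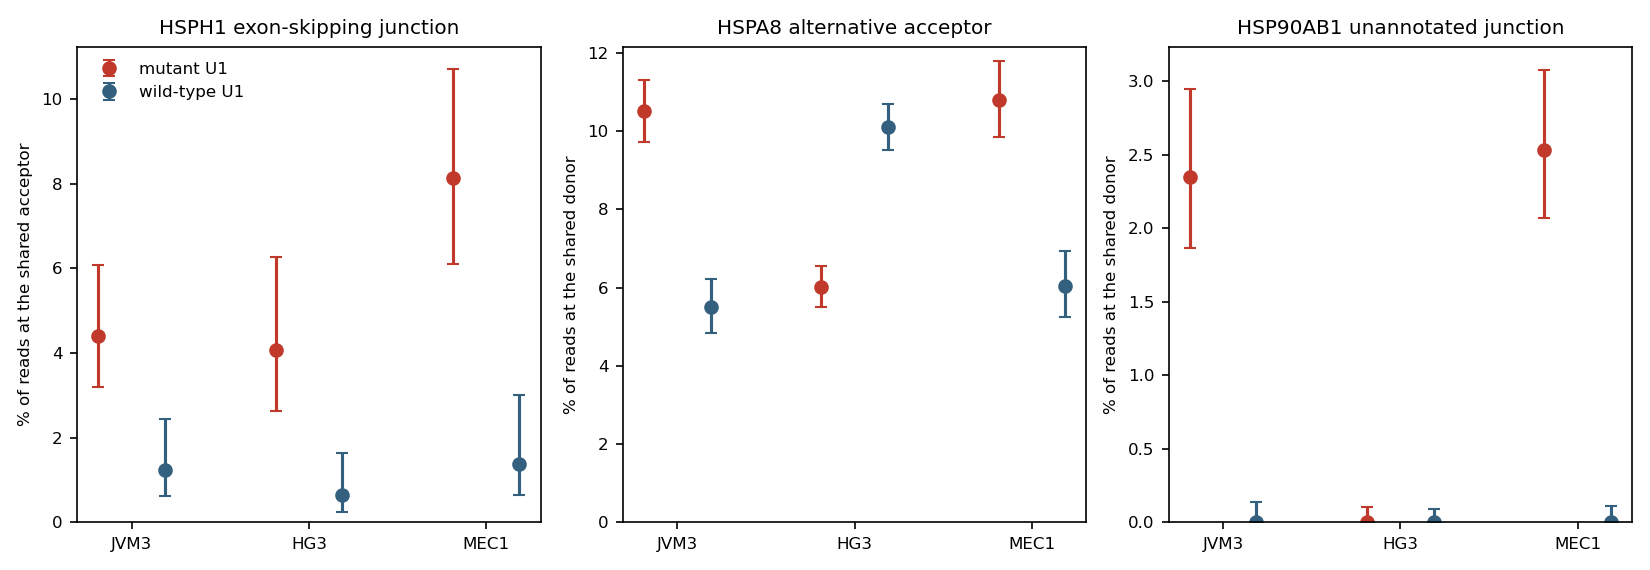
Shares of junction reads in 3 chaperone genes, in percent of reads at the shared acceptor (HSPH1) or donor (HSPA8, HSP90AB1), for mutant U1 in red left of wild-type U1 in blue. Each point is 1 column of the deposited table, with its 95% Wilson interval, which covers counting error only. Skipping of the HSPH1 exon was higher with mutant U1 in each line, the HSPA8 acceptor was higher with mutant U1 in JVM3 and MEC1 and lower in HG3, and the HSP90AB1 junction was read in mutant JVM3 and mutant MEC1.

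Other genes of the chaperone network moved in both directions. Of 34 further J-domain genes, 3 rose and 1 fell across lines, and 10, 12 and 10 rose and 3, 7 and 8 fell within JVM3, HG3 and MEC1. Of all genes tested, 1.83% rose and 1.86% fell across lines. Within JVM3, HG3 and MEC1, 10.4%, 18.7% and 18.0% rose and 12%, 19.6% and 18.6% fell. These shares are the background for the counts of each list here and below. DNAJB6, which holds back protein aggregation, had 150.3 ± 31.8 CPM with mutant and 89.2 ± 29.6 CPM with wild-type U1 (SD, n = 3 lines), and rose by 0.78 on the log2 scale (adjusted p = 0.0056, edgeR). Within lines DNAJB6 rose most in MEC1 (0.93, adjusted p = 4.12e-22) and DNAJB4 in HG3 (0.70, adjusted p = 7.07e-09). DNAJB4 (0.48, adjusted p = 0.0494) and DNAJB2 (0.45, adjusted p = 0.0324) also rose across lines, and DNAJC13, which acts on endosomes, fell (-0.47, adjusted p = 0.0202). DNAJB4 and DNAJB6 were also the 2 of 21 tested HSF1 target genes that rose across lines, and 0 fell; within JVM3 13 rose and 0 fell, within HG3 7 rose and 4 fell, and within MEC1 10 rose and 3 fell. Among 11 exchange factors and regulators of HSP70, BAG1 rose (0.36, adjusted p = 0.0412) and ST13, which steadies HSP70 bound to ADP, fell (-0.44, adjusted p = 0.0373).

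The remaining chaperone lists had 0 genes past the threshold across lines: 7 heat shock factors and regulators (2 at an unadjusted p under 0.05), 10 other HSP70 and HSP110 genes (2), 20 HSP90 paralogues and co-chaperones (2), 14 subunits of TRiC and prefoldin (1) and 11 mitochondrial chaperones and proteases (3). Within lines, of the HSP90 paralogues and co-chaperones 7 rose and 0 fell in JVM3, 8 rose and 0 fell in MEC1, and 4 rose and 7 fell in HG3. STIP1, which hands clients from HSP70 to HSP90, rose by 0.49 in MEC1 (adjusted p = 4.21e-15), and CACYBP fell by 0.46 in HG3 (adjusted p = 3.68e-11). Heat shock factors and regulators counted 3, 4 and 4 risen and 0, 1 and 1 fallen genes within JVM3, HG3 and MEC1. HSF4 rose in HG3 (0.63, adjusted p = 0.00461), as did HSF2BP (0.99, adjusted p = 0.00693). Other HSP70 and HSP110 genes counted 3, 1 and 1 risen and 1, 2 and 3 fallen within JVM3, HG3 and MEC1. HYOU1, the HSP110 relative of the endoplasmic reticulum, rose in HG3 (0.48, adjusted p = 5.35e-16), and HSPA4L fell in MEC1 (-0.46, adjusted p = 2.6e-07).

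Exchange factors and regulators of HSP70 counted 2, 2 and 6 risen and 1, 2 and 2 fallen within JVM3, HG3 and MEC1. HSPBP1, an inhibitor of HSP70, rose in MEC1 (0.72, adjusted p = 1.03e-10), where ST13 fell most among the lines (-0.64, adjusted p = 7.99e-19). TRiC and prefoldin counted 4, 2 and 7 risen and 1, 5 and 0 fallen in the same order of lines. PFDN6 fell (-0.39, adjusted p = 2.79e-06) and PFDN4 rose (0.23, adjusted p = 0.00616) in HG3. Mitochondrial chaperones and proteases counted 5, 3 and 4 risen and 1, 1 and 1 fallen. LONP1, a protease of the mitochondrial matrix, fell in MEC1 (-0.41, adjusted p = 1.53e-11), and DNAJA3 rose in HG3 (0.32, adjusted p = 1.28e-08). Small heat shock proteins other than HSPB1 summed to at most 0.555 CPM in mutant and 0.405 CPM in wild-type libraries and were not tested. Of 20 immediate early genes, which rise on handling stress as well, 0 passed across lines (1 at an unadjusted p under 0.05), and 4, 1 and 6 rose and 4, 7 and 2 fell within JVM3, HG3 and MEC1. IER3 rose in MEC1 (0.72, adjusted p = 1.14e-09) and EGR2 fell in JVM3 (-0.67, adjusted p = 0.000157).

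Likeness of pattern was described over the 12 libraries. The 3 genes most like each chaperone in log2 CPM were taken from 11008 genes with a mean of at least 5 CPM. For HSPA1A they were TIAM2, AHRR and SORT1 (Pearson r of 0.991 to 0.995), for HSPA1B CDK5RAP1, ZNF140 and SSTR2 (0.991 to 0.994), and for HSPA8 ZNF512B, TBC1D22B and UGT2B17 (0.988 to 0.99). HSP90AB1 was most like ACADM, ENC1 and SPARC (0.992 to 0.993), and HSP90AA1 less closely like PSMD14, HSPA4 and IDH2 (0.903 to 0.92). HSPH1 was most like FKBP5, an HSP90 co-chaperone, HIGD1A and GNAI3 (0.981 to 0.986), DNAJB1 like TIMM17B, PDZD11 and FADS2 (0.953 to 0.963), and HSPB1 like MAPKAPK3, GNAZ and DBI (0.988 to 0.989). HSPD1 was most like PGAM1, GSTO1 and XRCC5 (0.953 to 0.957) and HSPE1 like NAA15, SLC39A8 and TMEM237 (0.938 to 0.965). These values describe 12 libraries that come from only 3 lines, and a gene that differs between lines alone reaches a high r. Among the 10 themselves, r was 0.93 for HSPA1A with HSPA1B and 0.96 for HSPA8 with HSPB1, and -0.93 for HSPA1A with HSP90AB1. HSPD1 and HSPE1, despite their shared promoter, had r = 0.38.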

How the data were processed

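Gene counts per library were deposited by the authors as whole numbers, not normalized. Junction counts per line and U1 status were deposited by the authors as whole numbers with clusters of junctions, 1 column for each of 6 groups and no replicates. Trizol extraction, removal of ribosomal RNA and stranded total RNA libraries are stated per the labels' protocols. STAR 2.5.4b, HTSeq 0.9.1 and hg19 are named in the submitters' processing notes. No strand setting, read length or annotation release was given in the sources. Reads in no gene were 17.7% to 24.9% of those counted and stayed out of totals. Reads aligned to more than 1 place, 29% to 34.9% of a library's tally, stayed out as well.

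Genes were tested with edgeR 4.0.16 (TMM, filterByExpr, robust quasi-likelihood test, R 4.3.3), with Benjamini-Hochberg adjustment over all 21270 genes and a threshold of 0.05. Across lines, the 2 technical replicates were summed and the line was a block. Within lines and between lines, the 12 libraries were fitted together by group. Library depth of 29880079 to 39716818 reads limits the precision of HSPA1A in HG3, and junction columns held 15537369 to 17917160 reads. Junction use was tested with edgeR at junctions of at least 20 reads sharing an acceptor or donor, and limma 3.58.1 and DESeq2 1.42.0 served as alternatives. Junctions were matched to genes by exact intron lengths. Intervals and floors of 3 reads cover counting error only. Replicates differed by more than sampling noise (mean chi-square 2.14 to 4.80 for 1 degree of freedom), so none was merged as a duplicate. Scripts were tested on simulated data. The members and the gene lists were chosen with earlier results of these data known. The text names, for each other list, the genes that passed with the largest changes in either direction.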

Additional observations from a re-analysis of the deposited data

Results flagged for a closer look

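The response to mutant U1 differed between the 3 lines for 8 chaperone genes, by edgeR's test of the interaction over all genes. The adjusted p was 2.63e-14 for HSPA8, 1.48e-09 for HSPH1, 3.31e-07 for HSPE1, 2.18e-06 for HSP90AA1, 5.73e-06 for DNAJB1, 4.47e-05 for HSPD1, 0.000448 for HSPB1 and 0.0139 for HSPA1B. HSPA8 changed by 0.29 on the log2 scale in JVM3, by -0.25 in HG3 and by 0.18 in MEC1. Whether this belongs to HG3 or to its mutant derivative cannot be told apart.

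The use of the unannotated HSPA8 acceptor moved against the other lines in HG3, where mutant minus wild type was -4.09 points, beside 4.97 points in JVM3 and 4.76 points in MEC1. That difference was not tested, since each group has 1 column of junction reads. The total HSPA8 level moved in the same directions in the 3 lines, and the part of the level in this share was not tested.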

How the results depend on the processing

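Of the 10 genes, 0 passed across lines; 2 did without the filter on low counts (HSPA1A and HSPA1B), 3 when technical replicates were left unsummed, and 1 with a replicate block (HSPA1B, adjusted p = 0.00404). The replicate numbers did not pair the libraries (correlations of 0.017, 0.101 and 0.187 in JVM3, HG3 and MEC1), so the block is an alternative. Leaving out 1 library gave 0 to 0 across lines. Between MEC1 and JVM3, 0 genes passed, with 2 under median-of-ratios size factors, 1 with DESeq2, 1 with HSPA1A and HSPA1B summed, 4 with the replicate block, and 0 to 3 without 1 library. Junction use lost all calls with limma, leaving 0 at acceptors and 0 at donors.

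Directions reversed only for small changes or for HSPA1A in HG3. With the line left out in turn, the change across lines ranged from -0.05 to 0.24 for HSPA8, -0.14 to 0.03 for HSP90AA1, -0.16 to 0.08 for HSPH1, -0.13 to 0.02 for HSPD1 and -0.19 to 0.03 for HSPE1. With 1 library left out, HSPE1 in JVM3 ranged from 0.00 to 0.07 and HSPD1 in MEC1 from -0.08 to 0.01. In HG3 minus MEC1, HSPA1A ranged from -0.13 to 2.02 and HSP90AB1 from -0.04 to 0.01. The wild-type differences ranged from -0.07 to 0.02 for HSP90AA1 in HG3 minus JVM3 and from -0.10 to 0.01 for HSPE1 in HG3 minus MEC1. For HSPA1A and HSPA1B summed, HG3 minus JVM3 was -0.11 and HG3 minus MEC1 -0.39, against positive values for HSPA1A alone. The causes were not tested. In all, 1655 values kept direction and side of the threshold, 40 newly passed, 36 no longer passed and 14 reversed. Depth limits HSPA1A in HG3 and junctions of few reads.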
